A study of Arabidopsis thaliana with 9 samples.

Results

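A small set of nuclear loci was expressed in some genotypes of this Arabidopsis red light experiment and silent, or nearly so, in every library of at least 1 other genotype. A nuclear locus was taken when its mean was at least 1 FPKM over the 3 libraries of at least 1 genotype and when each of the 3 libraries of at least 1 other genotype was at most 0.2 FPKM, where FPKM is the number of fragments scaled to transcript length and library size. By this rule 16 of the 33322 nuclear loci in the files were chosen, out of 33602 loci in all. The values that chose the 16 loci are the FPKM values themselves, so these are given below as a description and not as a test. RNA was sequenced from whole 4-d-old seedlings kept in constant red light of 94 μmol/m2/s, as 3 independent biological replicates a genotype, which made 9 libraries. The genotypes were the mutant *bbx11-1*, which affects the B-box protein BBX11, the mutant *pif4-2*, which affects the transcription factor PIF4, and the wild type Col-0. The Col-0 libraries are labelled as the wild-type control for BBX11. Both mutants are in the Col-0 ecotype, 1 allele of each gene was sequenced, and all 3 genotypes received the same medium with sucrose, cold stratification and light. The libraries were made from RNA with poly(A) tails, which mature tRNAs and miRNAs generally lack.

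PIF4 is a basic helix-loop-helix transcription factor that binds G-box and related E-box motifs and promotes elongation growth, and the red light receptor phyB leads to its degradation. BBX11 is a B-box zinc finger protein that promotes photomorphogenesis. In Arabidopsis, many pseudogenes and transposon-derived loci lie in the gene-poor regions around the centromeres and are kept silent by DNA methylation and histone methylation, while tRNA genes are transcribed by RNA polymerase III and exist in many identical copies.

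The description of the set as loci silent in 1 genotype held for 9 of the 16 loci. The other 7 were silent in 2 genotypes and expressed in 1. Silence in *pif4-2* alone was found for 6 loci: *IAA34*, *SAG13*, AT5G37950, AT2G01023, the tRNA-Tyr locus AT4G22265 and *MIR170*. Silence in Col-0 alone was found for the 3 tRNA loci AT1G28850, AT1G28980 and AT2G07763, and no locus was silent in *bbx11-1* alone. The pseudogenes AT2G15750, AT4G01980 and AT4G08093 were silent in both mutants, so that Col-0 alone expressed them. The pseudogenes AT3G42090 and AT5G35935 and the seed storage gene *SESA1* were silent in *bbx11-1* and Col-0, and the tRNA-Ile locus AT2G17810 was silent in *pif4-2* and Col-0. Counted by genotype, 6 of the loci were silent in *bbx11-1*, 10 in *pif4-2* and 7 in Col-0. By comparison, 12069 nuclear loci were at most 0.2 FPKM in every library of at least 1 genotype, and 10439 of those were so in all 3 genotypes.

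**Figure D1:**
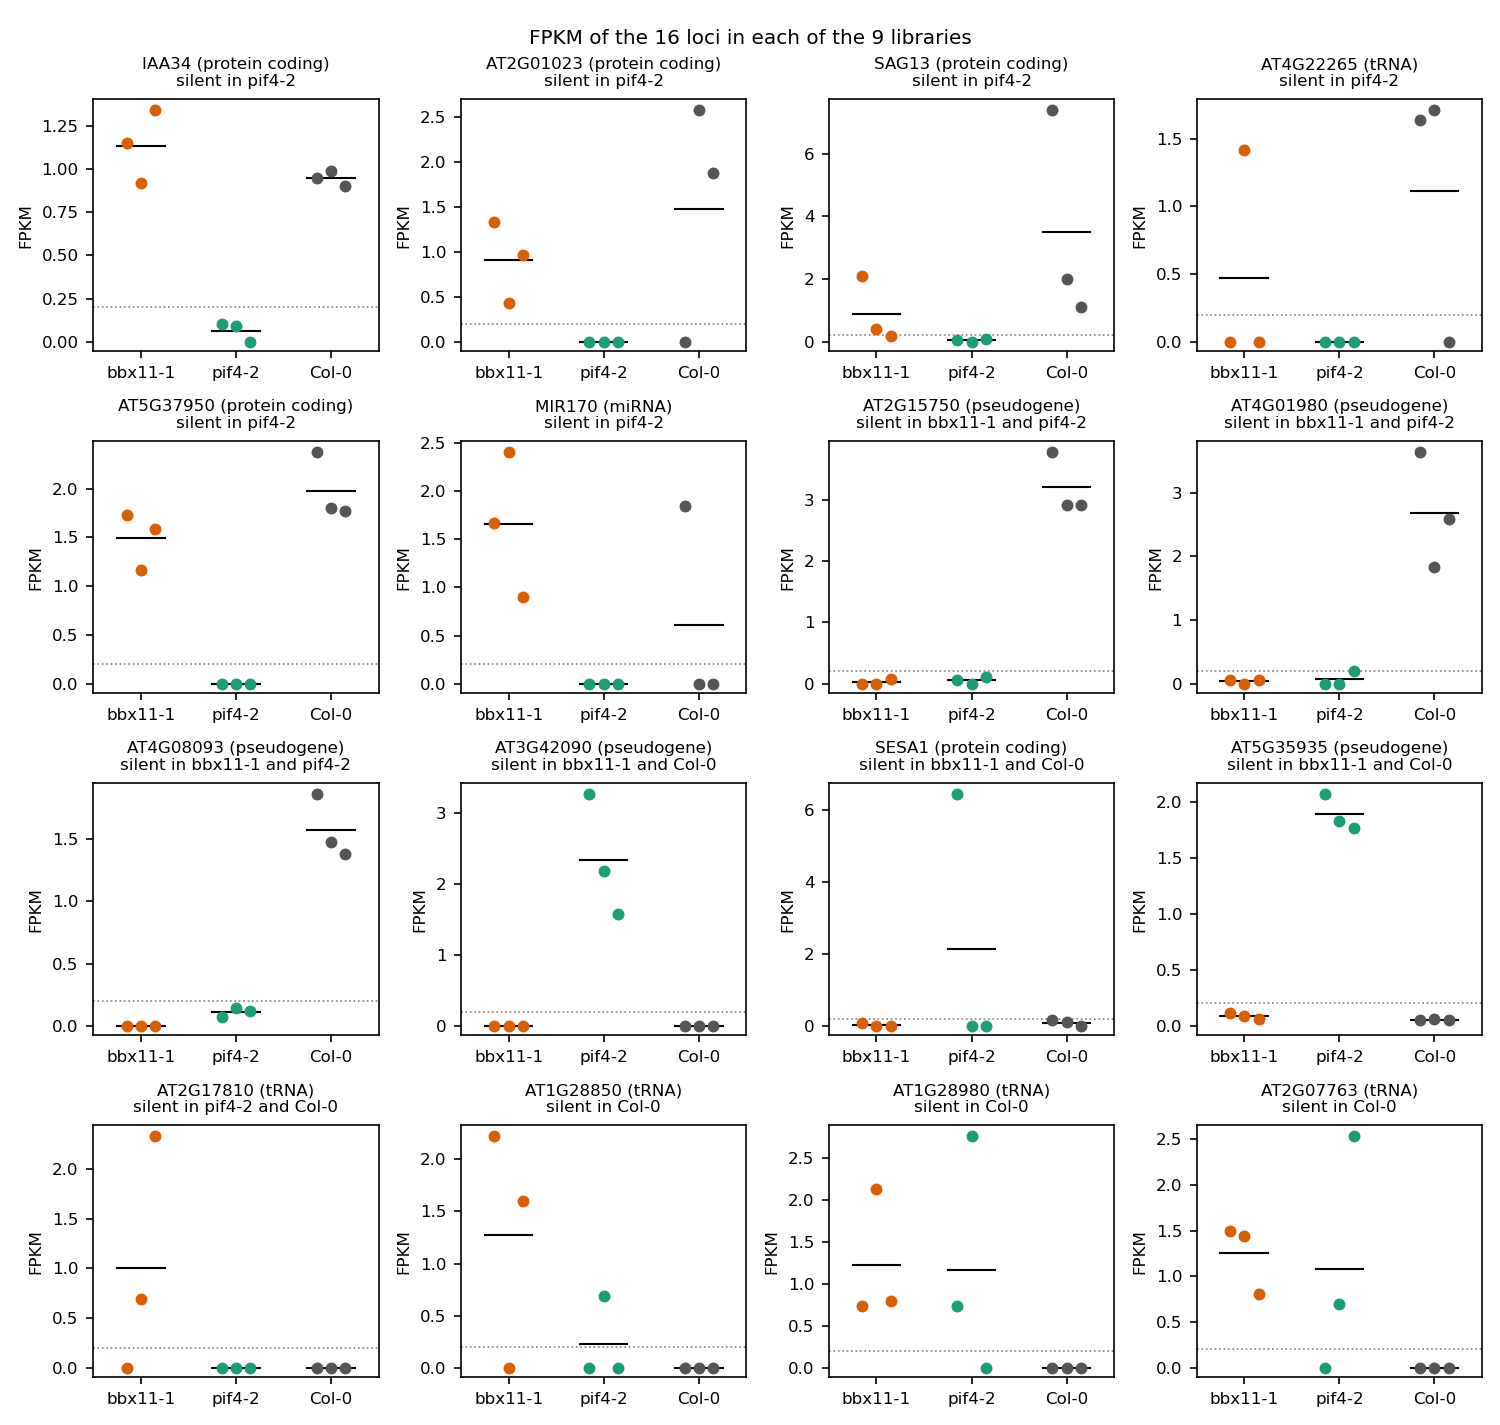
FPKM (y axis, linear, a scale of its own in each panel) of each of the 16 loci in the 3 libraries of *bbx11-1*, *pif4-2* and Col-0 (x axis). Points are libraries, horizontal bars are means and the dotted line is the ceiling of 0.2 FPKM. AT5G37950 was at 0 in all 3 *pif4-2* libraries, and *SESA1* reached 6.42 FPKM in 1 *pif4-2* library.

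The loci just inside the ceiling were AT4G01980, with a highest value of 0.20 FPKM in a genotype called silent, *SESA1* with 0.17 FPKM and AT4G08093 with 0.14 FPKM. Just outside it were AT1G27990 with 0.21 FPKM, AT5G50565 with 0.22 FPKM and AT5G24240 with 0.24 FPKM. Just inside the minimum were AT2G17810, with a highest genotype mean of 1.01 FPKM, AT4G22265 with 1.12 FPKM and *IAA34* with 1.14 FPKM, and just outside were the defensin gene *PDF1.3* (AT2G26010) with 0.98 FPKM and the tRNA locus AT2G07762 and the snoRNA locus AT3G24612 with 0.973 FPKM each.

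The seedlings showed the markers of the labelled tissue. The Rubisco small subunit gene *RBCS1A* lay between 17120 and 21570 FPKM and the chlorophyll-binding protein gene *CAB2* between 2655 and 4419 FPKM over the 9 libraries. The root hair genes *EXPA7* and *SHV2* lay between 3.72 and 7.51 FPKM and between 1.19 and 2.59 FPKM. Read depth was not given. It was inferred as the depth at which the most tRNA loci took values that are whole multiples of 1 read. This gave 16200000 to 22200000 reads per library, 17400000 to 19600000 in *bbx11-1*, 18800000 to 22200000 in *pif4-2* and 16200000 to 17900000 in Col-0. *PIF4* was at 16.88, 16.25 and 17.51 FPKM in *pif4-2*, against 35.23, 30.15 and 25.72 FPKM in Col-0, a difference in limma (log2 fold change −0.82 with SE 0.104 and Benjamini-Hochberg adjusted p = 0.00121) that stayed under the 2-fold required of a called gene. *BBX11* was at 10.72, 9.39 and 7.66 FPKM in *bbx11-1*, against 15.72, 16.37 and 78.24 FPKM in Col-0, where replicate 3 stood apart, and the difference did not pass the test (log2 fold change −1.52, SE 0.464, limma, Benjamini-Hochberg adjusted p = 0.231).

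By annotated kind, 5 of the 16 loci are protein coding, 5 are pseudogenes, 5 are tRNA genes and 1 is a miRNA precursor. Protein-coding genes made up 31.2% of the 16 loci, against 97.6% of the tested nuclear loci with an annotated kind. Pseudogenes made up 31.2%, against 0.858%, and tRNA genes 31.2%, against 0.116%. The rule itself favours loci of low level, and its part in these shares was not tested.

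The number of reads behind a value differed widely, because 8 of the 16 loci have at most 120 nt of annotated exon, a length found in 0.479% of the tested nuclear loci. These are the 5 tRNA loci, *MIR170*, AT2G01023 and AT3G42090. At 72 nt, 1 read was worth 0.624 to 0.856 FPKM, so that a mean of 1 FPKM needed only a few reads, and the limit that a count of 0 allows, 3 reads, came to 1.87 to 2.57 FPKM. The values of the 5 tRNA loci summed to 4 or 5 reads over the 3 libraries of the genotype in which each was highest. The other 8 loci have 703 to 6504 nt of exon, and the genotype in which each was highest held between about 63.8 reads (*IAA34*) and about 749.1 reads (AT5G35935). For these, 3 reads were worth no more than 0.263 FPKM, so a value of 0 limits their level to well under 1 FPKM. These limits cover counting error only.

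**Figure D2:**
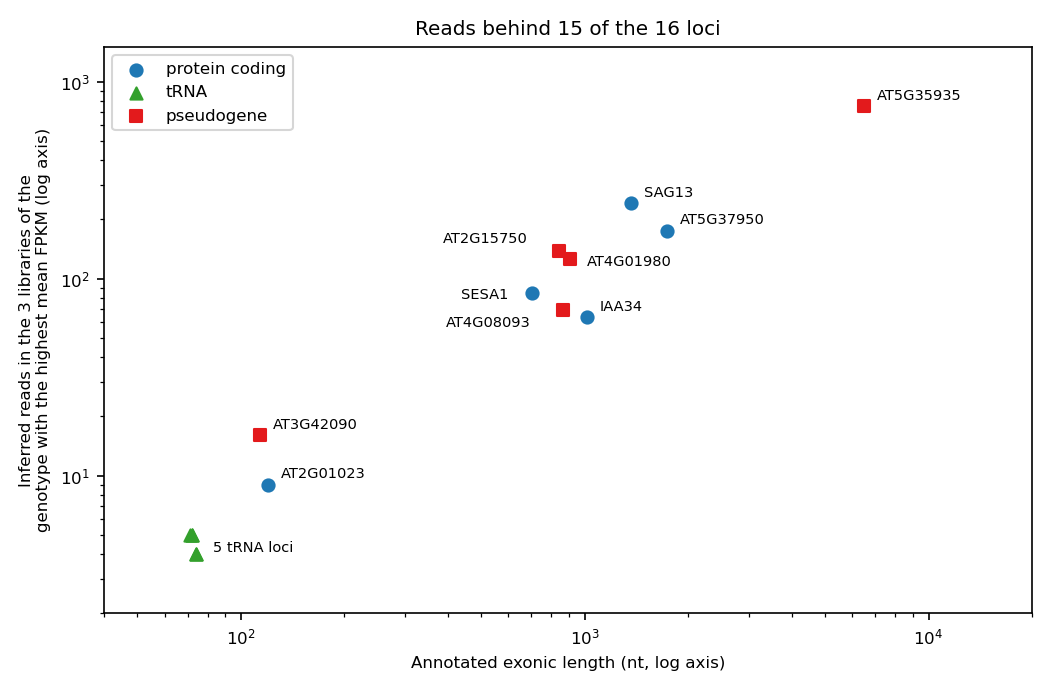
Annotated exonic length in nt (x axis, log scale) and inferred reads summed over the 3 libraries of the genotype with the highest mean FPKM (y axis, log scale) for 15 of the 16 loci. Colour and shape give the annotated kind, and *MIR170* is left out because its values were not whole multiples of 1 read at its annotated length. Those of *IAA34*, *SAG13*, AT4G08093 and AT5G37950 did not come out as whole multiples either, so their read numbers are approximate. At AT5G35935, 1 read was worth 0.00691 to 0.00948 FPKM, less than the last decimal place of the values. Whole multiples could thus not be judged there, and its read number is approximate too. The tRNA loci rest on 4 or 5 reads each and AT5G35935 on 749.1.

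Among the protein-coding loci silent in *pif4-2*, AT5G37950 encodes a UDP-glycosyltransferase superfamily protein, an enzyme family that joins sugars to small molecules such as hormones and secondary metabolites. AT5G37950 was at 1.73, 1.17 and 1.59 FPKM in *bbx11-1*, at 0 in all 3 libraries of *pif4-2*, and at 2.37, 1.80 and 1.77 FPKM in Col-0. In reads these were about 144 over the *bbx11-1* libraries, 0 over the *pif4-2* libraries and 175.5 over the Col-0 libraries. No *pif4-2* library overlapped either of the other genotypes. In AT5G37950, 7.80% of the 50-base stretches of the locus occur elsewhere in the genome, so most of the locus is unique.

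*IAA34* (AT1G15050), a member of the Aux/IAA family of auxin signaling repressors, was at 1.15, 0.92 and 1.34 FPKM in *bbx11-1*, at 0.10, 0.09 and 0 FPKM in *pif4-2*, and at 0.95, 0.99 and 0.90 FPKM in Col-0. The *pif4-2* libraries were below every library of *bbx11-1* and Col-0, which overlapped each other. About 3.7 reads remained over the 3 *pif4-2* libraries. No 50-base stretch of *IAA34* occurs elsewhere in the genome, but 156 nt of it overlap AT1G15060 on the same strand, an alpha/beta hydrolase family gene with means of 12.05, 12.8 and 12.1 FPKM in *bbx11-1*, *pif4-2* and Col-0.

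*SAG13* (AT2G29350), a short-chain alcohol dehydrogenase gene known as a senescence marker, was at 2.11, 0.41 and 0.17 FPKM in *bbx11-1*, at 0.04, 0 and 0.10 FPKM in *pif4-2*, and at 7.38, 1.99 and 1.11 FPKM in Col-0. Libraries of the same genotype differed widely. In both *bbx11-1* and Col-0 replicate 1 was the highest, and *bbx11-1* replicate 3 lay below the ceiling as well. *bbx11-1* replicate 1 lay above Col-0 replicates 2 and 3, so the genotypes overlapped, although *SAG13* was lower in *bbx11-1* than in the Col-0 library of the same number in all 3 pairs. The neighbouring members of the same dehydrogenase family showed no such spread: AT2G29340, on one side, had means of 68.5, 76.7 and 61.0 FPKM in *bbx11-1*, *pif4-2* and Col-0, and AT2G29360, on the other, 35.2, 35.8 and 39.2 FPKM.

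AT2G01023, which encodes an uncharacterized protein, has a transcript of only 120 nt. It was at 1.33, 0.43 and 0.96 FPKM in *bbx11-1* (3, 1 and 2 reads), at 0 in all 3 *pif4-2* libraries, and at 0, 2.57 and 1.87 FPKM in Col-0 (0, 5 and 4 reads). Replicate 1 of Col-0 thus read the same as *pif4-2*. In 1 library, 3 reads were worth 1.12 to 1.54 FPKM. The locus was not called with all 9 libraries, but it was called in *pif4-2* against Col-0 and in *bbx11-1* against *pif4-2* without Col-0 replicate 1. The locus lies 0.0490% of the way along chromosome 2, next to the ribosomal RNA genes at that end, and 33.8% of its 50-base stretches occur elsewhere in the genome.

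The sequences of the 250 bases before the annotated start of the 3 longer protein-coding loci silent in *pif4-2* are shown because PIF4 acts by binding DNA. They are taken from the RefSeq TAIR10.1 assembly at chr5:15115633-15115882 (plus strand) for AT5G37950, chr1:5183414-5183663 (minus strand) for *IAA34* and chr2:12600664-12600913 (plus strand) for *SAG13*, with chr4:13607079-13607328 (plus strand) for *SESA1* for comparison, and capitals mark CACGTG (the G-box), CACATG (an E-box variant bound by PIFs) and CATGCA (the RY motif of seed genes) on either strand.
AT5G37950: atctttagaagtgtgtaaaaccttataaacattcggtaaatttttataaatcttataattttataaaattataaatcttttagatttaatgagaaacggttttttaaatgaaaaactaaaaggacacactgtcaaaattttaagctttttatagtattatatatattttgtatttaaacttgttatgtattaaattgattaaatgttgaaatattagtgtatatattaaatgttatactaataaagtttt
IAA34: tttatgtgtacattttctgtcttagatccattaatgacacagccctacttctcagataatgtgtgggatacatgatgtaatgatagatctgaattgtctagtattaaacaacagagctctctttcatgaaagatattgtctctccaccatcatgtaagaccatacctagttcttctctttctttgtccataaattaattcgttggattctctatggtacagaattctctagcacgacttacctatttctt
SAG13: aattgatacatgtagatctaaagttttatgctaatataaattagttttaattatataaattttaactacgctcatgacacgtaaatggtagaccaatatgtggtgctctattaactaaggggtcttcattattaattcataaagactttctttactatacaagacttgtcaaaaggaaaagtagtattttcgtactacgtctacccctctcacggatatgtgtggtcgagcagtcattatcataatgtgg
SESA1: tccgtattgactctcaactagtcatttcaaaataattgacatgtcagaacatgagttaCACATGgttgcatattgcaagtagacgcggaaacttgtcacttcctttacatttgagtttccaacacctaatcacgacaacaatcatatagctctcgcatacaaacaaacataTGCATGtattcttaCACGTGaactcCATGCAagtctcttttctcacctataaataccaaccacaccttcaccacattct
None of the 3 motifs was present in the windows of AT5G37950, *IAA34* or *SAG13*, which says only that these letters are not in these windows. The window of *IAA34* lies wholly inside the expressed gene AT1G15060 on the same strand. Over all 16 loci the G-box was present upstream of *SESA1* only, against 5.83% of the windows of 32833 nuclear loci. CACATG was present upstream of AT2G07763 and *SESA1*, against 10.8% of all windows, and CATGCA upstream of AT2G17810 and *SESA1*, against 8.83%. The core CANNTG, which includes CACGTG and CACATG, was present upstream of 6 of the 16 loci, against 55.7% of all windows.

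*SESA1* (AT4G27140), which encodes a 2S seed storage albumin, was a member because of 1 library. It was at 0.08, 0 and 0 FPKM in *bbx11-1*, at 6.42, 0 and 0 FPKM in *pif4-2*, and at 0.17, 0.09 and 0 FPKM in Col-0. Replicates 2 and 3 of *pif4-2* were as silent as the other genotypes, and without *pif4-2* replicate 1 *SESA1* was not in the set. Other seed storage genes were read alongside it, chosen after these values were seen. *SESA2*, next to *SESA1*, was at 2.17 FPKM in *pif4-2* replicate 1 and at 0 to 0.15 FPKM in the other 8 libraries. *SESA5*, on another chromosome, was at 2.37 FPKM in *pif4-2* replicate 1 and at most 0.13 FPKM elsewhere, and the globulin gene *CRU2* at 0.62 FPKM and at most 0.03 FPKM. *SESA4* and *CRU3* were not highest in that library alone, since *SESA4* was at 0.46 FPKM in *pif4-2* replicate 1 and 0.45 FPKM in Col-0 replicate 2, and *CRU3* reached 4.34 FPKM in *bbx11-1* replicate 1. The globulin gene *CRA1* was at 18.41 FPKM in *pif4-2* replicate 1, within the 14.97 to 36.12 FPKM of all libraries. In bulk samples, more cells of a type and more RNA per cell cannot be told apart, and what set this library apart was not tested.

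**Figure D3:**
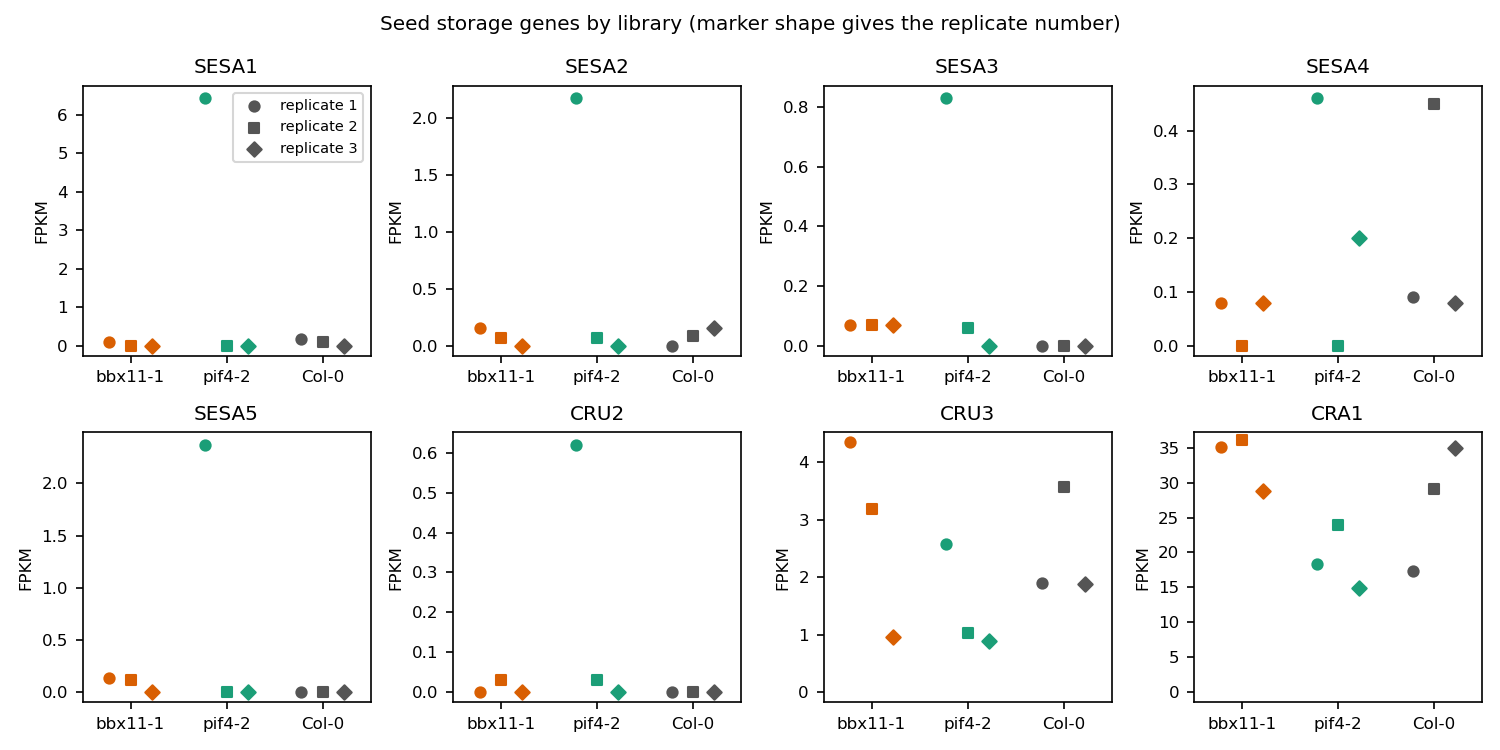
FPKM (y axis, linear, a scale of its own in each panel) of 8 seed storage genes in the libraries of *bbx11-1*, *pif4-2* and Col-0 (x axis), with marker shape for the replicate number. *SESA1*, *SESA2*, *SESA3*, *SESA5* and *CRU2* stand up in *pif4-2* replicate 1 only, at 6.42, 2.17, 0.83, 2.37 and 0.62 FPKM, while *CRA1* lies at 18.41 FPKM there.

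Col-0 alone expressed 3 pseudogenes. AT2G15750, at chr2:6862922-6864116 and annotated with 4 exons, was at 0, 0 and 0.07 FPKM in *bbx11-1*, at 0.06, 0 and 0.11 FPKM in *pif4-2*, and at 3.77, 2.92 and 2.92 FPKM in Col-0. This was about 1 read in *bbx11-1*, 3.1 in *pif4-2* and 137.9 in Col-0. Every Col-0 library lay above every library of the mutants, which overlapped each other. No 50-base stretch of the locus was found elsewhere. AT4G08093, annotated as a transcribed pseudogene, was at 0 in all 3 *bbx11-1* libraries, at 0.07, 0.14 and 0.12 FPKM in *pif4-2*, and at 1.86, 1.48 and 1.38 FPKM in Col-0. Every *pif4-2* library of AT4G08093 held some reads, about 5.8 in all, while the *bbx11-1* libraries held none.

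AT4G01980, the last of these pseudogenes, was at 0.06, 0 and 0.06 FPKM in *bbx11-1*, at 0, 0 and 0.20 FPKM in *pif4-2*, and at 3.63, 1.83 and 2.59 FPKM in Col-0. Its immediate neighbour followed the same order at a lower level. AT4G01975, a pseudogene 875 bases away on the same strand, was at 0.01, 0 and 0 FPKM in *bbx11-1*, at 0.01, 0.03 and 0 FPKM in *pif4-2*, and at 0.20, 0.30 and 0.29 FPKM in Col-0, below the minimum for the set. A copy of AT4G01980 with 98.8% identity over 910 aligned bases lies on chromosome 2 as the pseudogene AT2G22710, and 52.3% of the 50-base stretches of AT4G01980 occur elsewhere. AT2G22710 was at 0, 0 and 0.05 FPKM in *bbx11-1*, at 0.05, 0 and 0.04 FPKM in *pif4-2*, and at 0.25, 0.31 and 0.05 FPKM in Col-0. How reads of both copies were divided is not given in the sources used here, so the level of each is uncertain.

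Expression in *pif4-2* alone was found for 2 pseudogenes. AT5G35935, the longest of the 16 loci with 6504 nt, was at 0.11, 0.09 and 0.06 FPKM in *bbx11-1*, at 2.07, 1.83 and 1.77 FPKM in *pif4-2*, and at 0.05, 0.06 and 0.05 FPKM in Col-0. The *pif4-2* libraries agreed closely and lay far from the others. This locus was not at 0 in any library, with about 31.7 reads in *bbx11-1*, 749.1 in *pif4-2* and 17.6 in Col-0, and 0.170% of its 50-base stretches occur elsewhere. AT3G42090 has 114 nt of exon and was at 0 in all 3 *bbx11-1* libraries, at 3.26, 2.18 and 1.58 FPKM in *pif4-2*, and at 0 in all 3 Col-0 libraries. Those *pif4-2* values stand for 7, 5 and 4 reads, against none in the 6 other libraries, in a locus with no repeated 50-base stretch.

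Sequences of 4 of the 5 tRNA loci are printed because they decide what a read can say. All are from the RefSeq TAIR10.1 assembly on the plus strand, at chr1:10098653-10098724 (AT1G28850), chr1:10108389-10108460 (AT1G28980), chr2:3495442-3495512 (AT2G07763) and chr2:7742712-7742785 (AT2G17810), and capitals mark the anticodon.
AT1G28850 (tRNA-Pro): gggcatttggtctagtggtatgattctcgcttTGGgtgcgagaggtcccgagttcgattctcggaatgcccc
AT1G28980 (tRNA-Pro): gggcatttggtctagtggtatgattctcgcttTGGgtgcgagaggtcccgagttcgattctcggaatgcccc
AT2G07763 (tRNA-Cys): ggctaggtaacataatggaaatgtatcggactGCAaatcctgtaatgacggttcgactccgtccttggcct
AT2G17810 (tRNA-Ile): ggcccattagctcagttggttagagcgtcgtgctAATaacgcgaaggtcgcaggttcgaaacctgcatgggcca
The first pair is identical, and the same 72 bases occur at 34 places in the genome. The tRNA-Ile sequence occurs at 9 places, the tRNA-Tyr locus AT4G22265 at 2, and the tRNA-Cys locus at 2, of which the other is in the mitochondrial genome. Every 50-base stretch of the 5 loci is repeated, so a read within them cannot be assigned to 1 copy by sequence. A read that runs past the end of a locus is not covered by this. The other 8 tRNA-Ile copies and the other tRNA-Tyr copy were at 0 in all libraries, so their values lay on 1 copy only. How reads were divided among identical copies was not tested.

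AT1G28850 was at 2.22, 0 and 1.60 FPKM in *bbx11-1* (3, 0 and 2 reads), at 0, 0.69 and 0 FPKM in *pif4-2* (0, 1 and 0 reads), and at 0 in all 3 Col-0 libraries. AT1G28980 was at 0.74, 2.13 and 0.80 FPKM in *bbx11-1* (1, 3 and 1 reads), at 0.74, 2.76 and 0 FPKM in *pif4-2* (1, 4 and 0 reads), and at 0 in all 3 Col-0 libraries. Other copies with the same sequence were above 0 in Col-0. Of the 32 that are not in the set, 13 were at 0 in all 3 Col-0 libraries, 8 of them in all 9 libraries. Summed over these 32 loci, the values were 30.36, 25.56 and 26.37 FPKM in *bbx11-1*, 19.95, 12.42 and 14.34 FPKM in *pif4-2*, and 40.91, 21.41 and 28.80 FPKM in Col-0. The sum was lower in every *pif4-2* library than in any library of the other genotypes, with means of 15.6 ± 3.91 FPKM in *pif4-2* and 30.4 ± 9.85 FPKM in Col-0 (SD, n = 3, exact two-sided permutation test, p = 0.1, the smallest p that 3 against 3 libraries allow). It averaged 27.4 ± 2.57 FPKM in *bbx11-1*, which overlapped Col-0 (exact two-sided permutation test, p = 0.8) and did not overlap *pif4-2* (exact two-sided permutation test, p = 0.1, n = 3 each). These 3 tests of the sum were chosen after the values were seen and are not adjusted for one another. AT1G28850 and AT1G28980 were at 0 in Col-0 by the rule, so leaving them out can lower the sums of the mutants only. Over all 34 loci the sums were 33.32, 27.69 and 28.77 FPKM in *bbx11-1* and 20.69, 15.87 and 14.34 FPKM in *pif4-2*. In Col-0 they stayed at 40.91, 21.41 and 28.80 FPKM.

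Reads were as few at the other tRNA loci. AT2G07763 was at 1.5, 1.44 and 0.81 FPKM in *bbx11-1* (2, 2 and 1 reads), at 0, 0.70 and 2.53 FPKM in *pif4-2* (0, 1 and 4 reads), and at 0 in all 3 Col-0 libraries. AT2G17810 was at 0, 0.69 and 2.33 FPKM in *bbx11-1* (0, 1 and 3 reads), and at 0 in all 3 libraries of *pif4-2* and of Col-0. AT4G22265 was at 0, 1.42 and 0 FPKM in *bbx11-1* (0, 2 and 0 reads), at 0 in all 3 *pif4-2* libraries, and at 1.64, 1.71 and 0 FPKM in Col-0 (2, 2 and 0 reads). No library held more than 4 reads at any of these 3 loci, and 3 reads were worth 1.82 to 2.60 FPKM, and none of the 3 loci passed the test with all 9 libraries. Leaving out 1 library gave a call for AT2G07763 in *pif4-2* against Col-0 (without *pif4-2* replicate 1) and for AT2G17810 in *bbx11-1* against *pif4-2* (without *bbx11-1* replicate 1). AT4G22265 lies inside *MRB1* (AT4G22270) on the other strand, and AT2G07763 overlaps AT2G07739 by 2 nt. Of the 623 nuclear tRNA loci in the files, 78 were above 0 in any library and 22 were tested, among them the 5 members.

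*MIR170* (AT5G66045, chr5:26411580-26411672, minus strand) is the precursor of miR170, a miRNA that targets GRAS-family transcription factors of the SCARECROW-LIKE group. Its mature sequences are shown with the seed, bases 2 to 8, in capitals, from the RefSeq annotation of TAIR10.1.
ath-miR170-3p: uGAUUGAGccgugucaauauc
ath-miR170-5p: uAUUGGCCugguucacucaga
*MIR170* was at 1.67, 2.40 and 0.90 FPKM in *bbx11-1*, at 0 in all 3 *pif4-2* libraries, and at 1.84, 0 and 0 FPKM in Col-0. Col-0 replicates 2 and 3 thus could not be told from *pif4-2*. The values were not whole multiples of 1 read at the annotated 93 nt, and the libraries measured precursor or overlapping poly(A) RNA and not the mature miRNA.

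Along the chromosomes, 3 of the loci lie on chromosome 1, 5 on chromosome 2, 1 on chromosome 3, 4 on chromosome 4 and 3 on chromosome 5. Only AT1G28850 and AT1G28980 lay within 50 kb of another of the 16 loci, 9.66 kb apart in an array where each had 20 other identical copies within 50 kb. The next closest pairs were AT2G15750 and AT2G17810, 878.6 kb apart, and AT5G35935 and AT5G37950, 1026 kb apart. The tRNA-Pro locus AT2G07762, just outside the minimum, lies 355 bases from AT2G07763. It was at 0.71, 0.68 and 1.53 FPKM in *bbx11-1*, at 0, 1.33 and 0 FPKM in *pif4-2*, and at 0 in all 3 Col-0 libraries, and it joined the set without *bbx11-1* replicate 1 or 2. For reference, 1.24% of the other tested nuclear loci lay within 50 kb of one of the 16.

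Several of the loci lay among pseudogenes. Of the annotated loci within 50 kb, a median of 10.4% were pseudogenes around the 16 loci, against 3.23% around the other tested nuclear loci, and 7 of the 16 were above the 90th percentile of those other loci (14.3%). Around AT4G08093, 91.3% of the 23 loci were pseudogenes, and all 23 were at most 0.2 FPKM in all 9 libraries, so that AT4G08093 was the single expressed locus of the stretch. The shares were 66.7% around AT2G01023, 56.5% around AT3G42090, 36.8% around AT5G35935, 35.7% around AT2G15750 and 30.95% around the tRNA-Cys locus AT2G07763. By contrast, AT4G01980 had 3.33% and *IAA34* and *MIR170* had 0%.

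**Figure D4:**
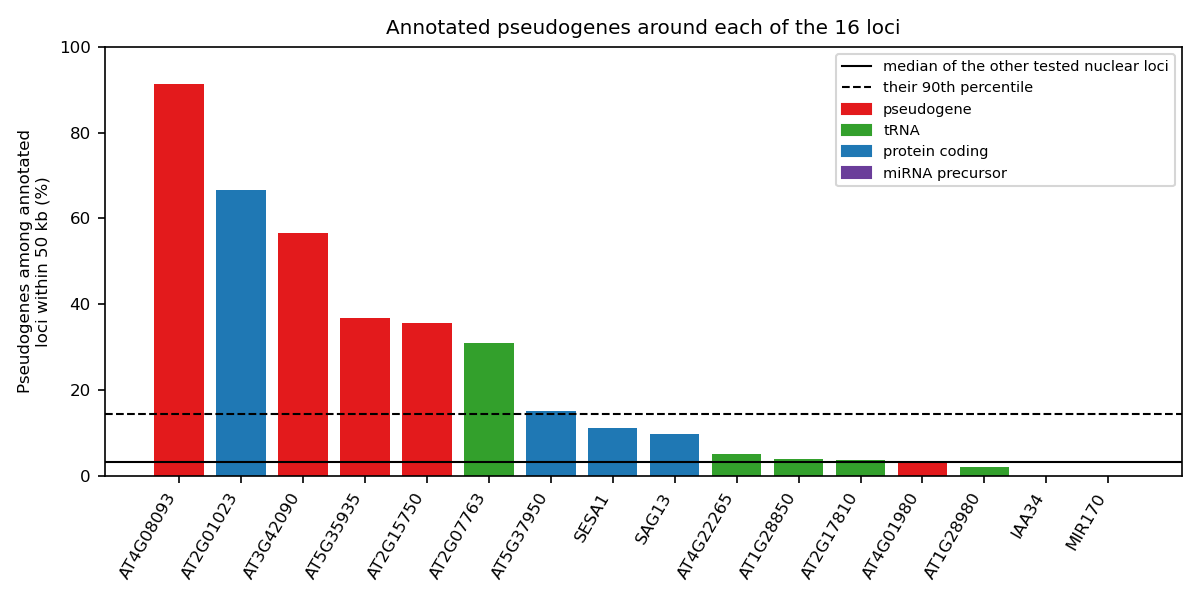
Percent of the annotated loci within 50 kb that are pseudogenes (y axis, linear from 0) for each of the 16 loci (x axis), coloured by the kind of the locus itself. The solid line is the median of the other tested nuclear loci, 3.23%, and the dashed line their 90th percentile, 14.3%. The 7 bars above the dashed line include 4 of the 5 pseudogenes.

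The rule did not use the loci on either side. The nearest tested locus on each side of every member gave 32 flanking loci, a median of 2.29 kb away and up to 100.9 kb away around AT4G08093. Not all of them were measured apart from the members, since AT1G28840, AT1G28890 and AT1G28970 are tRNA-Pro loci of the same array and AT1G15060, AT2G07739 and AT4G22270 overlap a member. None of the 32 changed in *bbx11-1* against Col-0 and none in *bbx11-1* against *pif4-2*, with 3 and 5 loci at an unadjusted p under 0.05 (limma). In *pif4-2* against Col-0, 1 of the 32 changed, with 7 at an unadjusted p under 0.05. Over all genes tested, 10.7% were under that p in *bbx11-1* against Col-0, 16.6% in *pif4-2* against Col-0 and 14.9% in *bbx11-1* against *pif4-2*. The background over all 19169 genes tested was 0.146% called in *bbx11-1* against Col-0, 1.13% in *pif4-2* against Col-0 and 0.636% in *bbx11-1* against *pif4-2*. The changed flanking locus was AT4G08040 (*ACS11*), a gene of ethylene synthesis 100.9 kb from AT4G08093, which was at 4.16, 5.14 and 4.03 FPKM in *bbx11-1*, at 7.60, 6.68 and 8.38 FPKM in *pif4-2*, and at 1.75, 3.96 and 2.96 FPKM in Col-0. It was higher in *pif4-2* than in Col-0 by 1.30 on the scale of log2(FPKM + 0.5) (SE 0.211, limma, Benjamini-Hochberg adjusted p = 0.00495), with no overlap between the libraries.

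**Figure D5:**
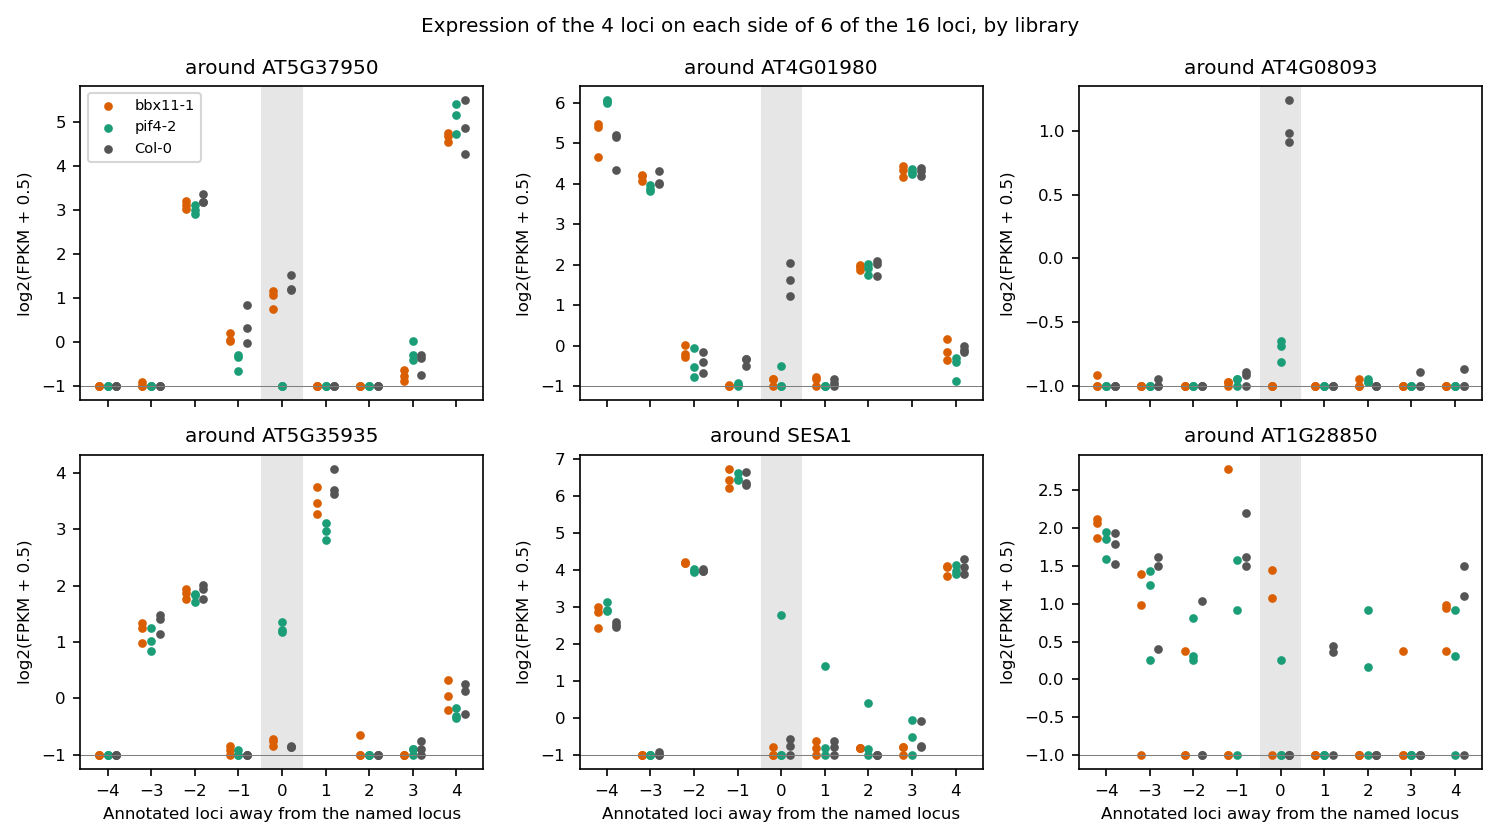
log2(FPKM + 0.5) (y axis) of the 4 annotated loci on each side of 6 of the 16 loci, in each library of *bbx11-1*, *pif4-2* and Col-0, plotted by rank along the chromosome (x axis) with the named locus shaded. A value of 0 FPKM falls on the grey line. Around AT4G08093 the 8 neighbours lie at or near the line in all libraries, and around AT5G35935 the next locus, AT5G35940, is expressed in all 3 genotypes.

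A neighbour of AT5G35935 and a neighbour of AT5G37950 were each lower in every *pif4-2* library than in any Col-0 library. Both neighbours were singled out after the values were seen. Other loci beside members did the same, among them *RHA2A*, AT2G29330 and AT5G66040. *GPAT3*, near AT4G01980, went the other way, at 62.67, 66.07 and 64.78 FPKM in *pif4-2*, against 19.77, 36.23 and 34.87 FPKM in Col-0. The share of such loci among all neighbours or all genes was not counted. AT5G35940 is a mannose-binding lectin superfamily gene 682 bases from the pseudogene AT5G35935 on the other strand. It was at 9.11, 12.99 and 10.51 FPKM in *bbx11-1*, at 7.31, 8.16 and 6.51 FPKM in *pif4-2*, and at 12.41, 11.84 and 16.27 FPKM in Col-0. The difference between *pif4-2* and Col-0 in limma (log2 fold change −0.83 with SE 0.149 and Benjamini-Hochberg adjusted p = 0.0085) stayed under the required 2-fold. The *bbx11-1* libraries overlapped those of Col-0. They lay above those of *pif4-2*, but that difference did not pass the test (log2 fold change 0.53, SE 0.149, limma, Benjamini-Hochberg adjusted p = 0.106). Whether the levels of AT5G35940 and AT5G35935 are linked was not tested. On one side of AT5G37950, the zinc-binding dehydrogenase family gene AT5G37940 was at 0.65, 0.54 and 0.52 FPKM in *bbx11-1*, at 0.13, 0.32 and 0.29 FPKM in *pif4-2*, and at 0.48, 0.75 and 1.28 FPKM in Col-0. The *pif4-2* libraries of AT5G37940 were below all others, but the gene was under the filter and was not tested.

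By limma with a Benjamini-Hochberg adjusted p below 0.05 and at least a 2-fold change, and over all 19169 genes, 28 genes changed in *bbx11-1* against Col-0, 217 in *pif4-2* against Col-0 and 122 in *bbx11-1* against *pif4-2*. All 16 loci passed the filter, as the rule's own minimum ensures. Of them, 3 were called lower in *bbx11-1* than in Col-0, where 0.0574% of all genes were, and 0 were called higher (0.0887% of all genes). In *pif4-2* against Col-0, 6 were called lower (0.35% of all genes) and 2 higher (0.783%). In *bbx11-1* against *pif4-2*, 2 were called higher (0.412%) and 2 lower (0.224%). Since the loci were chosen on the same values, nothing is read from these counts. The called loci are all among the longer ones except AT3G42090, and no tRNA locus was called in any of the 3 comparisons with all 9 libraries. Without 1 library, AT2G07763, AT1G28980 and AT2G17810 were each called in 1 comparison. *SAG13*, called lower in *pif4-2* than in Col-0, lost that call without any 1 of *pif4-2* replicates 1, 2 and 3 and Col-0 replicates 1 and 2. The first comparison and the second share the Col-0 libraries.

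Genes that set or remove the marks of silent chromatin were measured beside them. The list held 13 genes of DNA methylation, histone methylation, RNA-directed DNA methylation and demethylation. It includes *MET1*, which maintains CG methylation, the demethylase genes *DML1* and *IBM1*, the chromomethylase *CMT3* and the chromatin remodeler *DDM1* (AT5G66750). None of the 13 changed in any of the 3 comparisons by limma, and 0 reached an unadjusted p under 0.05. Over all genes tested, 0.146% were called in *bbx11-1* against Col-0, 1.13% in *pif4-2* against Col-0 and 0.636% in *bbx11-1* against *pif4-2*. Under that unadjusted p were 10.7%, 16.6% and 14.9%, in the same order. At such shares, 0 called among 13 genes says little, and the marks themselves were not measured. The log2 fold changes lay between −0.16 and 0.24 in *bbx11-1* against Col-0 (lowest Benjamini-Hochberg adjusted p = 0.664 by limma), between −0.18 and 0.13 in *pif4-2* against Col-0 (0.411) and between −0.07 and 0.21 in *bbx11-1* against *pif4-2* (0.472). *MET1* was at 10.68, 12.63 and 13.03 FPKM in *bbx11-1*, at 12.54, 11.31 and 11.61 FPKM in *pif4-2*, and at 12.05, 11.69 and 13.56 FPKM in Col-0.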

How the data were processed

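Reads were aligned by the authors to TAIR10 (Hisat2) and counted per gene (HTSeq), with edgeR (version 3.0.8 in the submitters' processing notes) for their own comparisons, and the deposited files hold 1 FPKM value per locus and library for 33602 loci. How FPKM was computed, the strand setting and the treatment of reads with several alignments are not given in the sources used here. The labels name a NovaSeq protocol and the methods a HiSeq instrument. No 2 libraries held identical values.

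Genotypes and replicate numbers came from the labels, which title the Col-0 libraries as the wild-type control for BBX11. Whether *pif4-2* was grown or sequenced together with them is not given in the sources used here, and a batch difference was not tested. The set was taken by the rule given above, and identifiers were matched to the RefSeq annotation of TAIR10.1 (32835 matched). Read numbers were inferred from 542 tRNA loci, of which 20 to 31 were above 0 in a library, with the annotated lengths assumed to be those used. From a grid of depths, the one taken gave the highest share of values above 0 that were whole multiples of 1 read within 0.1. That share was 95.2% to 100%, and since it was maximized it is no check of the depth. The 20% expected by chance holds for 1 fixed depth only. Copies were found with BLAST 2.17.0 and by 50-base stretches on both strands.

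Comparisons used limma 3.58.1 in R 4.3.3 on log2(FPKM + 0.5) for the 19169 loci whose mean reached 1 FPKM in a genotype, all 9 libraries in 1 fit with an intensity trend, and genes were called where the adjusted p (Benjamini-Hochberg) was below 0.05 with a 2-fold change or more. The test was checked on simulated data with independent noise in each library. That check does not cover the correlation between same-numbered libraries given below. Log2 fold changes understate the change of low loci. The loci named are all 16 members, those nearest each threshold, the mutated genes, the markers and the silencing list. The members and lists were chosen with earlier results of these data known. Deviations of same-numbered *bbx11-1* and Col-0 libraries correlated across genes (0.549, 0.287 and 0.275), so an alternative fit took the replicate number as a block. Those of *pif4-2* did not correlate with the same-numbered libraries of the other genotypes (−0.00819 to 0.0921). The block nevertheless covered all 9 libraries, so its results for *pif4-2* rest on a pairing that these correlations do not show. Other ceilings, minimums, scaling, pseudocounts and filters, and leaving out each library, were also tried. Seed storage genes other than *CRA1*, the summed tRNA-Pro copies and the neighbours singled out beside AT5G35935 and AT5G37950 were added after the values were seen.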

Additional observations from a re-analysis of the deposited data

How the results depend on the processing

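The set depended on its thresholds. A locus can be silent in more than 1 genotype, so the counts by genotype sum to more than the set. A ceiling of 0.5 FPKM gave 55 loci (14 silent in *bbx11-1*, 36 in *pif4-2* and 15 in Col-0) and a minimum mean of 0.5 FPKM gave 67 (23, 35 and 25). A minimum of 2 FPKM left 5 loci (4 silent in *bbx11-1*, 3 in *pif4-2* and 2 in Col-0), at least 1 FPKM in every library of the expressing genotype left 7 (5, 5 and 2), and transcripts of at least 300 nt left 8 (5, 6 and 2). Median-of-ratios scaling lost AT2G17810 only. Leaving out 1 library gave 19 to 26 loci, with 6 to 12 silent in *bbx11-1*, 9 to 20 in *pif4-2* and 7 to 12 in Col-0, and 2 to 7 near another. The count of 16 moved by over 1.5 times without *bbx11-1* replicate 2 (25), *pif4-2* replicate 1 (26), *pif4-2* replicate 2 (25) or *pif4-2* replicate 3 (25). Fewer libraries then have to be silent, so the count can rise by construction. *SAG13*, AT2G15750 and AT4G01980 stayed in the set under all 16 alternatives tried, whereas AT2G17810 and AT4G22265 stayed under 11 of 16. Genes changed in *bbx11-1* against Col-0 numbered 28, but 11 with all genes above 0, 8 with only the libraries compared and 13 with no intensity trend. Leaving out 1 library gave 13 to 42, with 13 without *bbx11-1* replicate 3, 15 without *pif4-2* replicate 1, Col-0 replicate 1 or Col-0 replicate 3 and 18 without *pif4-2* replicate 2, and 184 to 235 in *pif4-2* against Col-0. In *bbx11-1* against *pif4-2*, all genes above 0 gave 78 in place of 122, and leaving out 1 library gave 74 (without *pif4-2* replicate 1) or 75 (without *pif4-2* replicate 3) to 138. With the replicate block the 3 comparisons gave 37, 237 and 145 genes, and 3, 8 and 5 of the 16 loci in place of 3, 8 and 4, the addition being *MIR170*. The block changed no other call among the 16 loci, the flanking loci and the silencing list. In *pif4-2* against Col-0, *SAG13* was no longer called with all genes above 0 or without any 1 of *pif4-2* replicates 1, 2 and 3 and Col-0 replicates 1 and 2, and *IAA34* with a pseudocount of 1 or only the libraries compared. Called there with 1 library left out were AT2G07763 (*pif4-2* replicate 1), AT1G28980 (*pif4-2* replicate 3) and AT2G01023 (Col-0 replicate 1). In *bbx11-1* against *pif4-2*, AT2G17810 was called without *bbx11-1* replicate 1, AT2G01023 without Col-0 replicate 1, and *MIR170* without Col-0 replicate 1 or with only the libraries compared. *MIR170* was also called in *bbx11-1* against Col-0 without Col-0 replicate 1. The flanking count in *pif4-2* against Col-0 was 1 to 2 when 1 library was left out, the addition without *pif4-2* replicate 1 being the tRNA-Pro locus AT1G28970, which was then also called in *bbx11-1* against *pif4-2*. Depth limits the 8 short loci most, since their values rest on 7 reads or fewer in any library (*MIR170* aside, whose reads could not be inferred).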
